A study of Mus musculus with 6 samples.

Results

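Matrix metalloproteinases (MMPs), the related ADAM and ADAMTS proteins and the tissue inhibitors of metalloproteinases (TIMPs) were examined in mouse embryonic fibroblasts (MEFs) depleted of YME1L. Members were chosen by name alone: a locus was taken when any gene name it carried was *Mmp*, *Timp*, *Adam*, *Adamts* or *Adamtsl* followed by a number, with a closing a or b allowed for *Mmp* and *Adam*. The rule found 84 of the 51499 loci in the count table, made up of 23 MMP, 4 TIMP, 33 ADAM, 19 ADAMTS and 5 ADAMTS-like (ADAMTSL) genes. No measured value entered the rule.

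MMPs are zinc endopeptidases, secreted or bound to the membrane, that are made as inactive zymogens and together cut most components of the extracellular matrix. TIMPs occupy the active site of MMPs, and fibroblasts are a main source of both in connective tissue. Many ADAMs are transmembrane proteases that release the ectodomains of growth factors, cytokines and receptors, ADAMTS proteases are secreted and process procollagens and proteoglycans, and ADAMTSL proteins share their ancillary domains but have no protease domain.

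YME1L is an ATP-dependent protease of the mitochondrial inner membrane, and the study asked how its loss relates to innate immune signalling. WT MEFs were transfected with scrambled control siRNA (Scr) or with Yme1l siRNA and collected 72 h later, in 3 separate cultures for each siRNA. The sample labels describe an immortalized 3T3 line, whereas the study's methods describe WT MEFs as clones from Yme1l loxP/loxP mice, immortalized with SV40 large T antigen. How many siRNAs made up the knockdown reagent was not found in the labels or methods text used here, and p-values cover the spread between cultures given 1 siRNA treatment.

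Messenger RNA was sequenced in bulk, so fewer cells of a type and less RNA per cell cannot be told apart. The Scr libraries held 45205207, 37260605 and 41929579 counts for replicates 1 to 3, and the Yme1l siRNA libraries 43630145, 42161756 and 41342446. Levels are given as CPM, counts scaled to the TMM-adjusted size of each library. RPKM, which divides CPM by the exon length in kilobases, is used wherever genes are compared with each other. The exon length joins all annotated exons of a gene and can exceed that of any transcript, so the order of genes depends on this choice. A locus was called when edgeR's quasi-likelihood test with Benjamini-Hochberg adjustment over 14499 loci gave an adjusted p under 0.05, abbreviated as edgeR adjusted p. An exact two-sided permutation test of 3 against 3 libraries cannot go below p = 0.1, so no such p is given.

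The target gene *Yme1l1* had 170.5, 171 and 171 CPM in Scr and 31.6, 23.4 and 45.0 CPM in Yme1l siRNA. All 3 knockdown libraries were far below every control library. The mean fell from 171 ± 0.425 to 33.4 ± 10.9 CPM (SD, n = 3), a log2 fold change of −2.36 with a standard error of 0.20 and an edgeR adjusted p of 3.87e-05.

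By a chi-square over loci, the third replicate of each group was further from the others than these were from each other. Mitochondrially encoded loci took 4.11 and 3.92% of the counts in Scr replicates 1 and 2 but 2.196% in Scr replicate 3, close to the 2.00, 2.14 and 2.10% of the Yme1l siRNA libraries. A chi-square per degree of freedom over loci was 9.99 between Scr replicates 1 and 2 and 73.8 and 57.7 between each of these and Scr replicate 3. Among the Yme1l siRNA libraries it was 27.8 between replicates 1 and 2 and 48.9 and 71.6 against replicate 3. No library was therefore a second count of another. Another measure, the median absolute log2 difference, did not single out Yme1l siRNA replicate 3. It was 0.133 between replicates 1 and 2, 0.137 between 1 and 3, and 0.204 between 2 and 3. Leaving out the third culture of both groups was an alternative added after seeing the data. Its values are given for members, their families and named genes where they differ in call or by more than 1.5 times. No such values are given for the called counts of the other gene lists.

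The cells expressed fibroblast genes. *Col1a1* had the highest CPM of 13 fibroblast markers, at 12695 CPM in Scr and 8504 CPM in Yme1l siRNA. *Thy1* and *Lum*, which mark many fibroblasts, stayed under 1 CPM in every library. The summed level of the 13 markers was 41511, 38097 and 34276 CPM in Scr and 22889, 22191 and 18487 CPM in Yme1l siRNA. Of the 11 markers tested, edgeR called 10 lower, whereas 29.6% of all loci tested were called lower. The median log2 fold change of the 11 was −0.78. The fibroblast markers thus fell together with many of the protease genes described here, and their part in these results was not tested.

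The matrix protease genes were mostly lower after the knockdown, with the MMP, TIMP and ADAMTSL genes reduced most in summed level. The 84 members together took 1.01, 0.969 and 0.879% of the counts in Scr, against 0.567, 0.564 and 0.489% in Yme1l siRNA. Every knockdown library lay below every control library. Of the 84 members, 68 had at least 1 count and 43 passed the filter on low counts and were tested. Of these 43, edgeR called 31, whereas 58.0% of all loci tested were called. It called 6 higher, against 28.4% of all loci, and 25 lower, against 29.6% of all loci. The groups did not overlap for 31 of the 43, against 65.4% of all loci. The median log2 fold change of the 43 was −0.62, beside 0.01 over all loci tested. Without the third culture of both groups, 8 members were higher and 28 lower, with a median of −0.68. The 8 include *Mmp24* and *Adam3*, which pass the filter on low counts there but are not among the 43, and leave out *Mmp10*.

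The families differed in how their tested genes were divided. Among the MMPs, 7 of 14 were lower and 1 higher, with a median log2 fold change of −0.63, which was −0.37 without Scr replicate 1. The called MMPs were 57.1% of those tested, close to the 58.0% over all loci. Among the TIMPs, 2 of 3 were lower and 1 was not called, with a median of −0.87. The ADAM family had 7 of 11 lower and 2 higher, with a median of −0.79. The ADAMTS family was the most mixed, with 6 of 12 lower, 3 higher and a median of −0.21. All 3 ADAMTSL genes tested were lower, with a median of −0.62, but the call of *Adamtsl3* depended on the libraries kept, as given below. With no filter on low counts the medians of the ADAM and ADAMTS genes turned to 0.04 and 0.24, as genes with a handful of counts entered, while those of the MMP and TIMP genes stayed at −0.43 and −1.10. A log2 change of at least 1 was reached by 13 of the lower members and by 1 of the higher ones, *Mmp10*. Differences between the families were not tested.

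**Figure D1:**
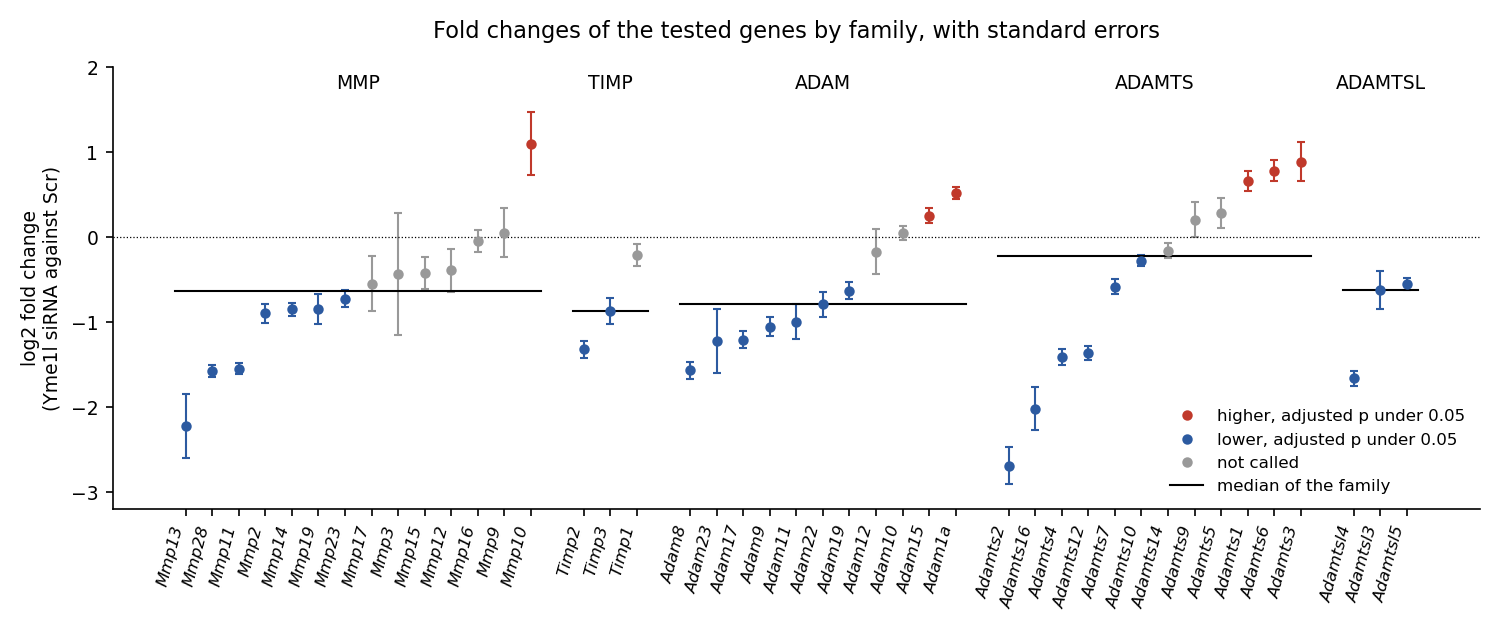
Log2 fold change of Yme1l siRNA against Scr for each of the 43 tested genes, ordered within families, with bars for the standard error and a black line at each family's median. Most points lie below 0, and the ADAMTS genes spread from −2.69 to 0.89 around a median of −0.21.

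Summed per length, the MMP genes had 783, 774 and 554 RPKM in Scr and 333, 339 and 326 RPKM in Yme1l siRNA. The TIMP genes summed to 1238, 1153 and 988 RPKM in Scr and 614, 608 and 504 RPKM in Yme1l siRNA. For both families each knockdown library was below each control library, and the Yme1l siRNA means came to 47.2% and 51.1% of the Scr means. The ADAM sum was 203, 198 and 210.1 RPKM in Scr and 164, 157 and 154 RPKM in Yme1l siRNA, or 77.6% of Scr. The ADAMTS sum was 93.9, 88.0 and 88.6 RPKM in Scr and 81.3, 74.4 and 72.9 RPKM in Yme1l siRNA, or 84.5%. These differences were smaller, and the groups again did not overlap. The ADAMTSL sum went from 58.1, 55.6 and 49.3 RPKM to 21.6, 21.2 and 19.3 RPKM, or 38.1% of Scr. In both groups the order of the families by summed RPKM was TIMP, MMP, ADAM, ADAMTS and ADAMTSL.

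A few genes carried most of each sum. By mean RPKM in Scr, *Timp2* led with 665, followed by *Timp3* with 288, *Mmp2* with 275, *Mmp14* with 181, *Timp1* with 174 and *Mmp13* with 159. With this exon length *Timp2* stood clear of the others. The libraries of *Timp3* and *Mmp2* overlapped in RPKM, as did those of *Mmp14*, *Timp1* and *Mmp13*. The place of *Timp3* rests on its joined exons of 8144 bases, whereas its longest transcript has 4722, and those of *Timp2* have 3896. By mean CPM in Yme1l siRNA, *Timp3* was above *Timp2*, at 1285 against 1041. *Adam15*, *Adamtsl4* and *Adam10* came next with 44.6, 44.6 and 43.7 RPKM and overlapped as well. In Yme1l siRNA the order of mean RPKM was *Timp2* with 267, *Timp3* with 158, *Timp1* with 150.1, *Mmp2* with 148 and *Mmp14* with 101, and *Mmp13* dropped to 34.1, below *Adam15* with 53.2 and *Adam10* with 45.4. The libraries of *Timp3*, *Timp1* and *Mmp2* overlapped in this group. Taken from group means, *Mmp13* made up 22.6% of the MMP sum in Scr and 10.2% in Yme1l siRNA. The Scr libraries were uneven, with 194, 218 and 64.6 RPKM of *Mmp13*, against 31.1, 36.1 and 35.0 RPKM in Yme1l siRNA.

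**Figure D2:**
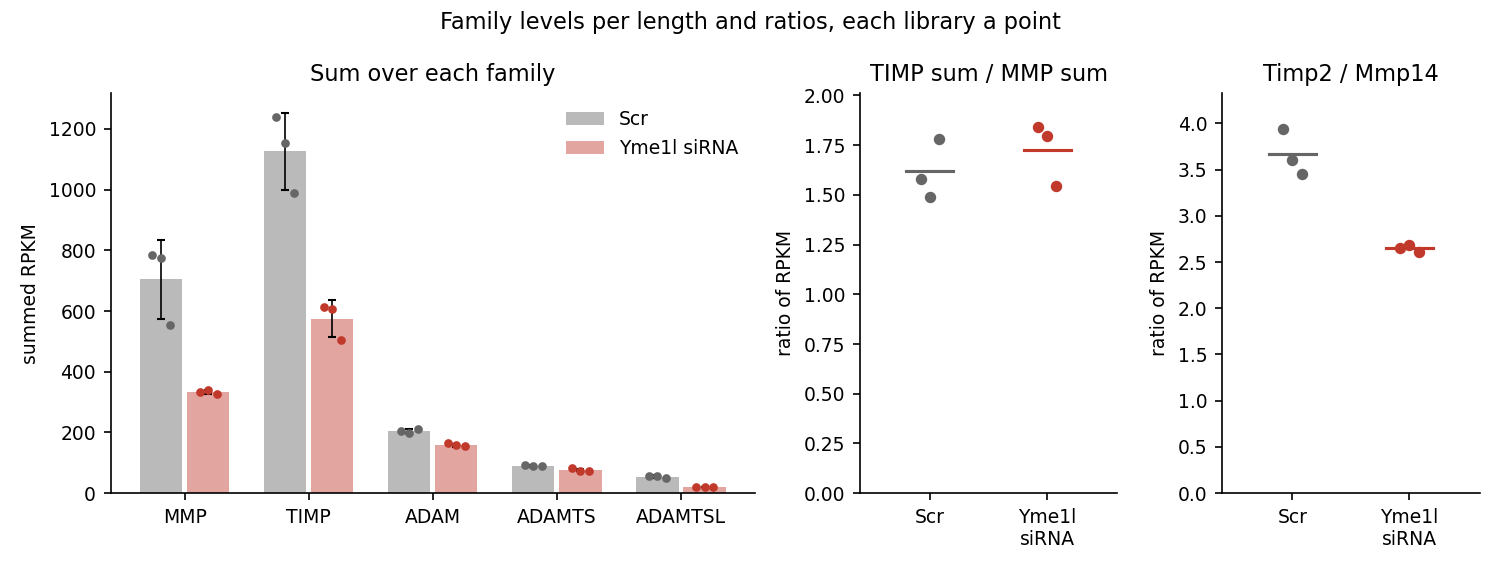
Left, summed RPKM of each family, with bars for the mean of 3 libraries, error bars for the SD and points for the libraries; centre and right, the ratio of the TIMP sum to the MMP sum and of *Timp2* to *Mmp14* in each library. The MMP and TIMP sums in Yme1l siRNA were 47.2% and 51.1% of Scr. Over all libraries, the ratio of these sums overlapped between the groups, and the *Timp2* to *Mmp14* ratio did not.

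Among the MMPs, the membrane-bound *Mmp14* and the gelatinase *Mmp2* had the highest mean RPKM, and both were lower. *Mmp14* (chr14:54431612-54445364, GRCm38), which encodes the transmembrane protease that activates pro-MMP2, had 1122, 1098 and 1018 CPM in Scr and 621, 603 and 579 CPM in Yme1l siRNA. The values were tight within each group and far apart between them. The mean fell from 1079 ± 54.1 to 601 ± 20.8 CPM (SD, n = 3), a log2 fold change of −0.85 (SE 0.08, edgeR adjusted p = 4.34e-05). *Mmp2* (chr8:92827291-92853420), which cuts denatured collagen and basement membrane collagen, had 997, 943 and 842 CPM in Scr and 530.2, 538 and 429 CPM in Yme1l siRNA. The third replicate was the lowest of each group, and the groups did not overlap. The log2 fold change of *Mmp2* was −0.89 (SE 0.11, edgeR adjusted p = 0.000208). The RPKM ratio of *Mmp2* to *Mmp14* was 1.57, 1.52 and 1.46 in Scr and 1.51, 1.58 and 1.31 in Yme1l siRNA, so the groups overlapped for this ratio while both genes declined.

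The other gelatinase, *Mmp9*, had 15.7, 9.51 and 6.21 CPM in Scr and 9.74, 11.9 and 11.1 CPM in Yme1l siRNA. The knockdown values lay within the range of the controls, and the log2 fold change was 0.06 (SE 0.28, edgeR adjusted p = 0.877), or −0.23 without the third culture of both groups. Of the other membrane-anchored MMPs, *Mmp15*, *Mmp16* and *Mmp17* had log2 fold changes of −0.42, −0.05 and −0.54 (−0.20 for *Mmp16* without the third culture of both groups) and none was called, although every Yme1l siRNA value of *Mmp15*, between 1.97 and 2.91 CPM, lay below its Scr values of 3.03 to 3.49 CPM.

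Outside the cluster described next, 4 further secreted or shed MMPs were lower. *Mmp11*, or stromelysin-3, which is activated inside the cell by furin-type proteases, had 81.9, 86.7 and 86.7 CPM in Scr and 29.2, 28.1 and 30.2 CPM in Yme1l siRNA. *Mmp28*, or epilysin, had 40.9, 37.7 and 40.3 CPM in Scr and 13.7, 12.9 and 13.4 CPM in Yme1l siRNA. Both genes were reduced to a similar degree with almost no spread within groups. Their log2 fold changes were −1.55 (SE 0.06, edgeR adjusted p = 3.26e-06) for *Mmp11* and −1.57 (SE 0.07, edgeR adjusted p = 5.02e-06) for *Mmp28*. *Mmp19* and *Mmp23* had log2 fold changes of −0.84 and −0.72, and their groups did not overlap either.

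**Figure D3:**
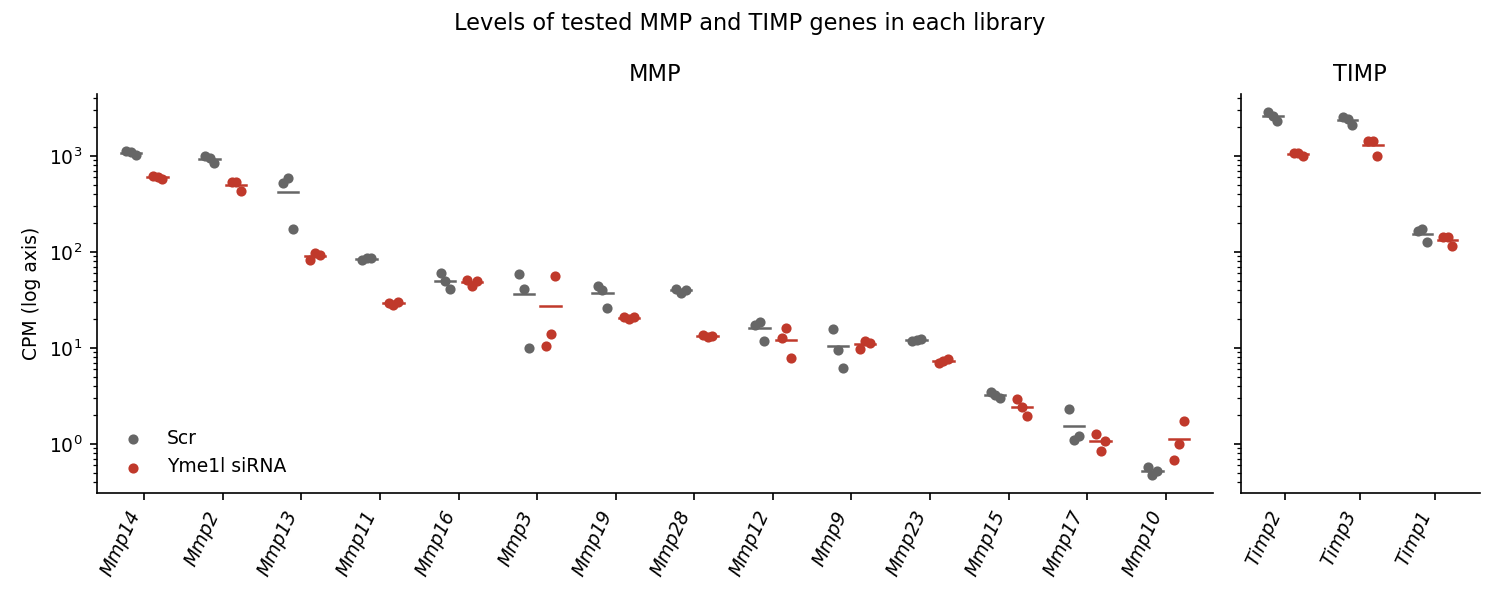
CPM on a log axis of each tested MMP and TIMP gene, with a point for each library and a line at the group mean. *Mmp14*, *Mmp2*, *Mmp13*, *Mmp11*, *Mmp28*, *Timp2* and *Timp3* separate by group, whereas *Mmp3*, *Mmp9*, *Mmp16* and *Timp1* overlap.

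The collagenase and stromelysin genes lie side by side on chromosome 9, in a cluster of 10 members between positions 7272514 and 7699585. Only 4 of the 10 were tested: *Mmp13* was lower, *Mmp10* higher, and *Mmp3* and *Mmp12* not called. Without the third culture of both groups *Mmp13*, *Mmp3* and *Mmp12* were called lower, at −2.62, −2.04 and −0.33, and *Mmp10* was not called, at 0.65, so how the 4 genes compare in direction depends on the libraries kept. Promoter windows were taken from RefSeq (GRCm38.p6) for 53 of the 84 members, in 58 windows that run from 250 bases before to 50 bases after a start. Because genes of this cluster are textbook targets of AP-1, the 100 bases before the start of the 4 tested genes are shown, all on the plus strand, with capitals for each match to the AP-1 type letters TGANTCA. For *Mmp12*, the stretch is from the second of its windows, picked because it holds a match. Its first window, which spans the annotated gene start at 7344381, has no match in any of its 300 bases. The second window, chr9:7347124-7347423, lies inside the gene. The coordinates are chr9:7272414-7272513 for *Mmp13*, chr9:7347274-7347373 for *Mmp12*, chr9:7445722-7445821 for *Mmp3* and chr9:7502242-7502341 for *Mmp10*.
Mmp13: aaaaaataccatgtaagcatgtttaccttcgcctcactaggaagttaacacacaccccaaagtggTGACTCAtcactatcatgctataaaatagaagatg
Mmp12: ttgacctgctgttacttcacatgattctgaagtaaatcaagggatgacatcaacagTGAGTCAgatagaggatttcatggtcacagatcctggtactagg
Mmp3: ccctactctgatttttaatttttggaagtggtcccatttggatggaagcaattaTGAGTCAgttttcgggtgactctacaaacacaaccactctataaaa
Mmp10: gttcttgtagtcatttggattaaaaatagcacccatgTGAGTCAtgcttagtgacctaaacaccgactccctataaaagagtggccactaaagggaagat

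The match began 35 bases before the start in *Mmp13*, 44 in the second window of *Mmp12*, 46 in *Mmp3* and 63 in *Mmp10*. The AP-1 type letters were present, on either strand, in 8 of the 10 cluster genes and in 0 of the other 8 MMP genes with a window. A gene was counted when any of its windows held them, which for *Mmp12* was the second window alone. Over all 32851 windows of the same length, 7.81% held them, and over the 58 member windows 22.4%. Outside the cluster they were found in *Adam19*, *Adam1b*, *Adam20*, *Adam25* and *Adam29*. The STAT type letters TTCNNNGAA were in 8.30% of all windows and in *Adam21*, *Adam26b* and *Mmp23*. The ISRE type letters, GAAA followed by NN and a further GAAA, were in 3.44% of all windows and, among the members, in *Mmp13* alone. The ETS cores CAGGAAG or ACGGAAG were in 15.6% of all windows and in 11 members, including *Mmp3*, *Adam10*, *Adam17*, *Adamts12*, *Timp1* and *Timp3*. All were searched on both strands, and matches of different motifs overlapped in 0 member windows. Tested members without a window were *Adam9*, *Adam11*, *Adam12*, *Adamts4*, *Adamts5*, *Adamts6*, *Adamts7*, *Adamts10*, *Adamts16*, *Mmp2*, *Mmp9*, *Mmp16*, *Mmp17* and *Mmp19*. A match is a description of the letters only.

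*Mmp13*, the main interstitial collagenase of rodents (chr9:7272514-7283331), had 519, 582 and 173 CPM in Scr and 83.2, 96.4 and 93.6 CPM in Yme1l siRNA. Scr replicate 3 lay well below the other controls but above all knockdown libraries. The mean was 425 ± 220.4 CPM in Scr and 91.1 ± 6.97 CPM in Yme1l siRNA (SD, n = 3), a log2 fold change of −2.22 (SE 0.38, edgeR adjusted p = 0.0012). Without Scr replicate 3 the log2 fold change was −2.60, and it stayed between −2.60 and −1.93 as each library was left out.

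*Mmp3*, or stromelysin-1, which degrades proteoglycans and activates other pro-MMPs, had 58.2, 41.1 and 9.88 CPM in Scr and 10.5, 13.8 and 56.7 CPM in Yme1l siRNA. The third replicates ran opposite to their groups, Scr replicate 3 being the lowest of all libraries and Yme1l siRNA replicate 3 among the highest. The log2 fold change of *Mmp3* was −0.43 (SE 0.72, edgeR adjusted p = 0.628). Leaving out Scr replicate 1 gave 0.08. Leaving out Yme1l siRNA replicate 3 gave −1.59, and the gene was then called lower. Without the third culture of both groups it was −2.04. Adjusted p-values for *Mmp3* ranged from 6.99e-06 to 0.965 over the alternatives, so its value rests on which libraries are kept. A 284-base stretch of *Mmp3* is 95.4% identical to *Gm15242*, and how reads of such stretches were assigned is not given in the sources used here.

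*Mmp12*, the macrophage metalloelastase, had 17.1, 18.7 and 11.9 CPM in Scr and 12.7, 16.0 and 7.76 CPM in Yme1l siRNA. The third replicate was again the lowest of each group, and the groups overlapped. Its log2 fold change was −0.39 (SE 0.26, edgeR adjusted p = 0.224), and without the third culture of both groups it was −0.33 and called (over the alternatives, edgeR and other adjusted p-values ranged from 0.0102 to 0.516). An exon of *Mmp1b* lies on the other strand of this gene. *Mmp10*, or stromelysin-2, rose from 0.577, 0.471 and 0.521 CPM in Scr to 0.676, 0.989 and 1.73 CPM in Yme1l siRNA. These correspond to 25, 17 and 22 counts and 30, 43 and 73 counts, and the highest value is that of Yme1l siRNA replicate 3. The log2 fold change was 1.10 (SE 0.37, edgeR adjusted p = 0.0301). The call for *Mmp10* was lost on leaving out any of the Scr libraries (1.17, 1.03 and 1.09 without replicates 1, 2 and 3) or Yme1l siRNA replicate 3 (0.66), and without the third culture of both groups (0.65). Its adjusted p ranged from 0.0127 to 0.136 over the alternatives.

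The other cluster genes were at or near 0. *Mmp1a* and *Mmp7* had 0 counts in all libraries. *Mmp1b* had 0, 4 and 0 counts in Scr and 4, 0 and 4 in Yme1l siRNA, and *Mmp8* had 2, 3 and 0 counts in Scr and 4, 7 and 1 in Yme1l siRNA. *Mmp20* had 1 count in each of 2 libraries, and *Mmp27* at most 4. The rodent collagenase genes other than *Mmp13* were therefore not detectable as different at this depth.

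**Figure D4:**
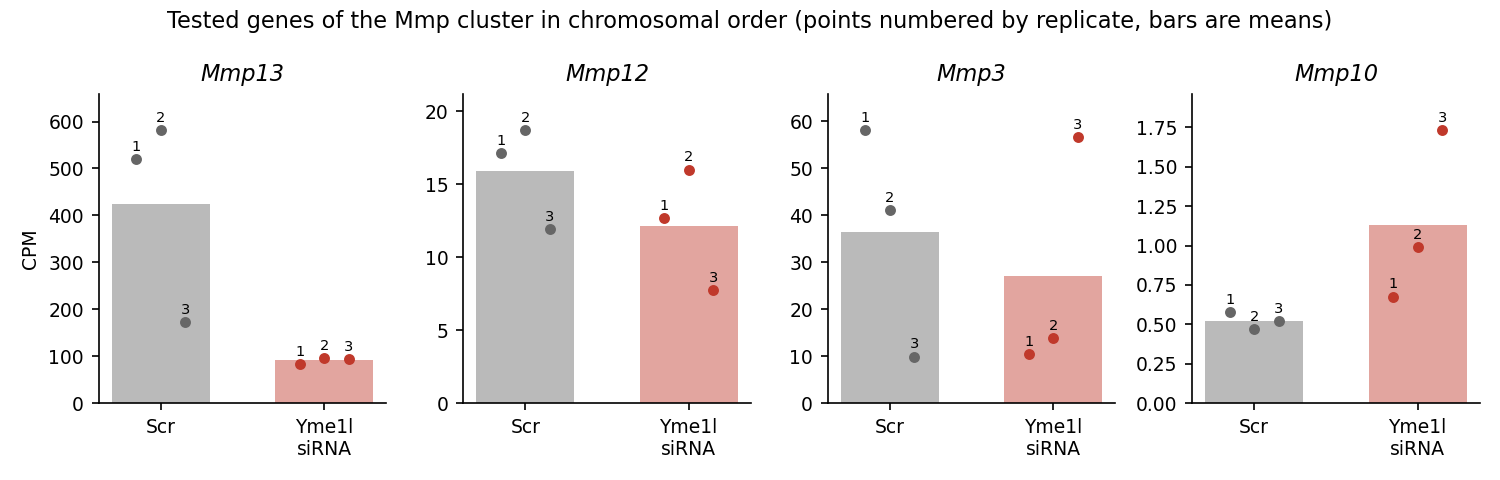
CPM of the 4 tested genes of the *Mmp* cluster in chromosomal order, with bars for the group mean and points numbered by replicate. Scr replicate 3 is low for *Mmp13* (173 CPM) and *Mmp3* (9.88 CPM), and Yme1l siRNA replicate 3 is high for *Mmp3* (56.7 CPM) and *Mmp10* (1.73 CPM).

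Of the TIMPs, the 2 with the highest mean RPKM were lower. *Timp2* (chr11:118301069-118355740), which inhibits MMPs and also bridges pro-MMP2 to MMP14 for its activation, had 2886, 2587 and 2298 CPM in Scr and 1076, 1059 and 989 CPM in Yme1l siRNA. Every knockdown library was far below every control library. The mean fell from 2590.1 ± 294 to 1041 ± 45.8 CPM (SD, n = 3), a log2 fold change of −1.31 (SE 0.10, edgeR adjusted p = 2.35e-05). *Timp3* (chr10:86300372-86349506), a matrix-bound inhibitor that also acts on ADAM17 and aggrecanases, had 2551, 2403 and 2082 CPM in Scr and 1442, 1424 and 989 CPM in Yme1l siRNA. Yme1l siRNA replicate 3 was the lowest, and the groups did not overlap. The log2 fold change of *Timp3* was −0.87 (SE 0.15, edgeR adjusted p = 0.00138). Exons of *Syn3*, which hosts *Timp3* on the other strand, overlap it.

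*Timp1*, the inducible secreted inhibitor, had 164, 172 and 127 CPM in Scr and 143, 143 and 114 CPM in Yme1l siRNA. The third replicate was the lowest of each group, and Scr replicate 3 lay between the knockdown values. The log2 fold change was −0.21 (SE 0.13, edgeR adjusted p = 0.205). *Timp1* was called lower without Scr replicate 3, at −0.34, and without the third culture of both groups, at −0.24 (range of adjusted p over the alternatives, 0.0205 to 0.487). *Timp4* had 0, 1 and 1 counts in Scr and 0 in every Yme1l siRNA library and was not tested. As shares of the TIMP sum in RPKM, *Timp2* went from 59.0% in Scr to 46.5% in Yme1l siRNA and *Timp1* from 15.4% to 26.1%.

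The balance of inhibitors to MMPs depended on the genes compared. The ratio of the TIMP sum to the MMP sum in RPKM was 1.58, 1.49 and 1.78 in Scr and 1.84, 1.80 and 1.55 in Yme1l siRNA. The groups overlapped, and the highest Scr value came from replicate 3 and the lowest Yme1l siRNA value from replicate 3. Without the third culture of both groups this ratio did not overlap and was higher in Yme1l siRNA. The ratio of *Timp2* to *Mmp14* in RPKM was 3.94, 3.60 and 3.45 in Scr and 2.65, 2.69 and 2.61 in Yme1l siRNA. The ratio of *Timp2* to *Mmp2* was 2.50, 2.37 and 2.36 in Scr and 1.76, 1.70 and 2.00 in Yme1l siRNA. For both of these gene pairs every knockdown library was below every control library, as *Timp2* declined more than either protease. These ratios describe mRNA levels and were not tested.

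The ADAM family divided between its main sheddases. *Adam17* (chr12:21323509-21373632), the sheddase of TNF and of several EGF receptor ligands, had 133, 130.0 and 142 CPM in Scr and 57.9, 51.4 and 66.3 CPM in Yme1l siRNA. *Adam10* (chr9:70678997-70780229), the sheddase of Notch and cadherins, had 208, 206 and 231 CPM in Scr and 236, 226 and 208 CPM in Yme1l siRNA. *Adam17* was lower in every knockdown library, while the values of *Adam10* were interleaved. The log2 fold changes were −1.21 for *Adam17* (SE 0.10, edgeR adjusted p = 3.15e-05) and 0.05 for *Adam10* (SE 0.08, edgeR adjusted p = 0.583). Without the third culture of both groups *Adam10* was at 0.16 and again not called. The RPKM ratio of *Adam10* to *Adam17* was 2.27, 2.31 and 2.37 in Scr and 5.93, 6.42 and 4.56 in Yme1l siRNA. Each knockdown library thus had a higher ratio than any control library, with replicate 3 the lowest of its group.

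*Adam8*, *Adam9* and *Adam19*, further proteolytic ADAMs of somatic tissues, were lower as well. *Adam8*, a sheddase of adhesion molecules, had 138, 132 and 129.9 CPM in Scr and 43.2, 40.1 and 51.6 CPM in Yme1l siRNA, and *Adam9* had 167, 158 and 175 CPM in Scr and 86.3, 66.4 and 88.2 CPM in Yme1l siRNA. Neither gene's groups overlapped. The log2 fold changes were −1.57 (SE 0.10, edgeR adjusted p = 1.13e-05) for *Adam8* and −1.05 (SE 0.11, edgeR adjusted p = 0.000101) for *Adam9*. *Adam19*, which can shed neuregulins, had 154, 137 and 147 CPM in Scr and 103, 80.0 and 102 CPM in Yme1l siRNA, a log2 fold change of −0.63 (SE 0.11, edgeR adjusted p = 0.00111). *Adam12*, with 1.78 to 3.33 CPM over all libraries, was not called, at −0.17, and shares a stretch of 373 bases with *CT030642.2* at 99.7% identity.

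*Adam15*, the ADAM with the highest mean RPKM in both groups, had 268, 276 and 277 CPM in Scr and 331, 359 and 291 CPM in Yme1l siRNA. All knockdown values were above the controls, Yme1l siRNA replicate 3 by the least. Its log2 fold change was 0.26 (SE 0.09, edgeR adjusted p = 0.0313). The call for *Adam15* was lost on leaving out any library but Yme1l siRNA replicate 3, with log2 fold changes of 0.24, 0.26 and 0.26 on dropping Scr replicates 1, 2 and 3, and of 0.25 and 0.19 on dropping Yme1l siRNA replicates 1 and 2 (adjusted p over the alternatives, 0.00436 to 0.101). *Adam1a* was higher, with 39.4, 41.9 and 41.4 CPM in Scr and 58.4, 63.6 and 54.5 CPM in Yme1l siRNA and a log2 fold change of 0.52 (SE 0.07, edgeR adjusted p = 0.00046). That locus joins *Adam1a* with *Mapkapk5* and *Gm42878* in a single count, so the value cannot be assigned to *Adam1a* itself.

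*Adam11*, *Adam22* and *Adam23*, which have no active protease site and are known as receptors of the secreted neuronal protein LGI1, were all lower at low levels, with log2 fold changes of −0.99, −0.79 and −1.22. *Adam23* had 2.19, 1.55 and 0.877 CPM in Scr and 0.676, 0.851 and 0.451 CPM in Yme1l siRNA. Scr replicate 3 was barely above the highest knockdown library. The edgeR adjusted p of *Adam23* was 0.0222, and its call was lost without Scr replicate 1 (−0.87), Scr replicate 2 (−1.22), Yme1l siRNA replicate 1 (−1.24) or Yme1l siRNA replicate 3 (−1.01), with adjusted p from 0.0036 to 0.0922 over the alternatives. The other 22 ADAM genes, many of which are known from testis, did not pass the filter on low counts.

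**Figure D5:**
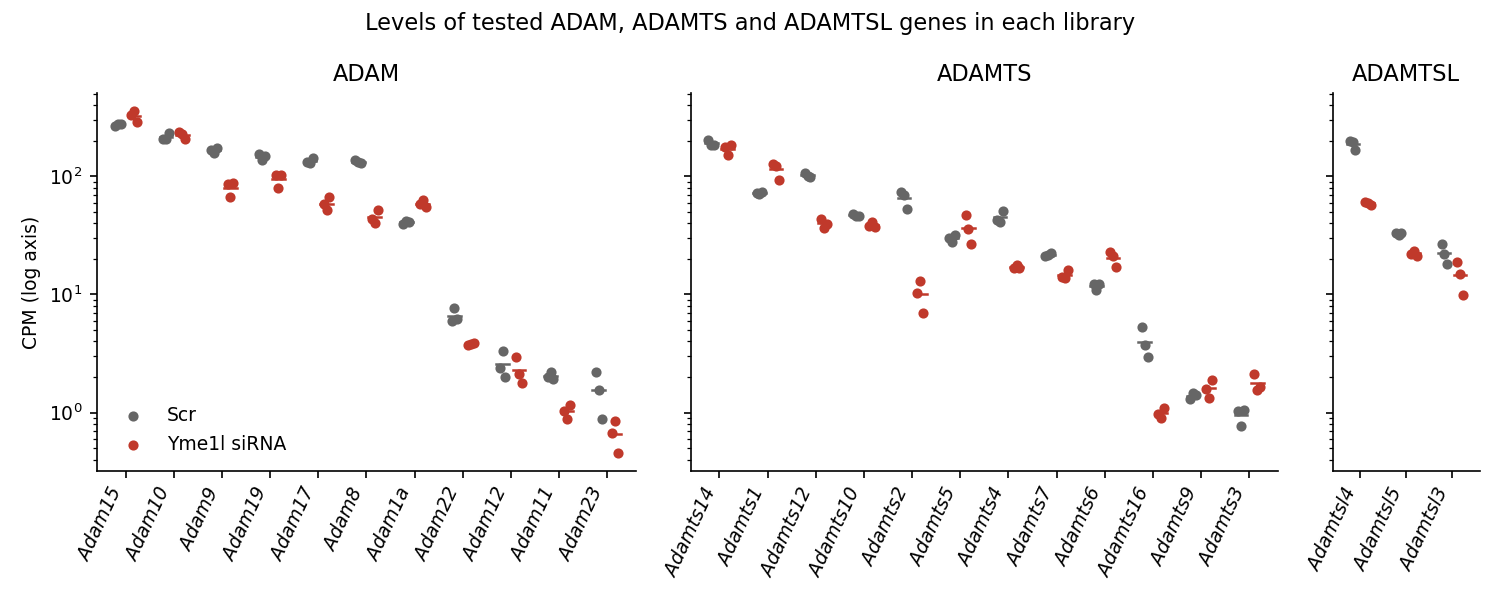
CPM on a log axis of each tested ADAM, ADAMTS and ADAMTSL gene, with a point for each library and a line at the group mean. *Adam17*, *Adam9*, *Adam8*, *Adamts2*, *Adamts12* and *Adamtsl4* are lower in every Yme1l siRNA library and *Adamts1* and *Adamts6* higher, whereas *Adam10* and *Adamts14* overlap.

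ADAMTS genes changed in both directions within the same functional classes. Among the procollagen N-proteinases, which trim fibrillar procollagens, *Adamts2* (chr11:50602084-50807573) had 74.1, 69.8 and 52.7 CPM in Scr and 10.3, 13.0 and 7.02 CPM in Yme1l siRNA. Scr replicate 3 was the lowest control, still far above every knockdown library. *Adamts2* had the largest fall of all tested members, a log2 fold change of −2.69 (SE 0.22, edgeR adjusted p = 2.92e-05). *Adamts14*, the most abundant ADAMTS gene in RPKM, had 202, 184 and 183 CPM in Scr and 177, 151 and 183 CPM in Yme1l siRNA, with overlapping groups and a log2 fold change of −0.16 (SE 0.09, edgeR adjusted p = 0.17), or −0.24 and not called without the third culture of both groups. *Adamts3* had 1.04, 0.776 and 1.04 CPM in Scr and 2.12, 1.54 and 1.66 CPM in Yme1l siRNA. Its knockdown values were all higher, and its log2 fold change was 0.89 (SE 0.23, edgeR adjusted p = 0.0101). The call of *Adamts3* was lost without Yme1l siRNA replicate 1, at 0.74 (adjusted p over the alternatives, 0.0065 to 0.0504).

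Among the proteoglycanases, *Adamts4* and *Adamts1* moved in opposite directions. *Adamts4*, or aggrecanase-1, had 43.0, 41.4 and 50.8 CPM in Scr and 16.7, 17.7 and 16.6 CPM in Yme1l siRNA. *Adamts1*, which cuts versican and aggrecan, had 72.4, 71.4 and 73.1 CPM in Scr and 127, 123 and 92.8 CPM in Yme1l siRNA. Neither gene's groups overlapped, and Yme1l siRNA replicate 3 rose least for *Adamts1*. The log2 fold changes were −1.41 for *Adamts4* (SE 0.09, edgeR adjusted p = 1.37e-05) and 0.66 for *Adamts1* (SE 0.12, edgeR adjusted p = 0.00136). *Adamts5*, or aggrecanase-2, lies next to *Adamts1* on chromosome 16, at chr16:85856173-85901828 against chr16:85793827-85803113, both on the minus strand. It had 30.3, 27.8 and 31.6 CPM in Scr and 47.0, 35.5 and 26.9 CPM in Yme1l siRNA. The knockdown values spanned the controls, and *Adamts5* was not called, with a log2 fold change of 0.29 (SE 0.18, edgeR adjusted p = 0.191). It was called higher without Yme1l siRNA replicate 3, at 0.46, and without the third culture of both groups, at 0.50 (adjusted p over the alternatives, 0.00591 to 0.727). *Adamts9* was not called either, at 0.21, or 0.07 without the third culture of both groups.

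The proteases that cut cartilage oligomeric matrix protein, *Adamts12* and *Adamts7*, were both lower. *Adamts12* had 107, 101 and 99.4 CPM in Scr and 43.7, 36.6 and 39.5 CPM in Yme1l siRNA, without overlap, and a log2 fold change of −1.36 (SE 0.08, edgeR adjusted p = 9.17e-06). *Adamts7* had a log2 fold change of −0.58. *Adamts16* had 5.29, 3.71 and 2.96 CPM in Scr and 0.969, 0.897 and 1.09 CPM in Yme1l siRNA. Its knockdown values were all far below the controls, with a log2 fold change of −2.01 (SE 0.25, edgeR adjusted p = 0.000231). *Adamts10*, which binds fibrillin-1, was lower by a small amount, at −0.27. *Adamts6*, its closest relative, had 12.2, 10.9 and 12.3 CPM in Scr and 22.8, 21.3 and 16.9 CPM in Yme1l siRNA, higher in each knockdown library, with a log2 fold change of 0.79 (SE 0.12, edgeR adjusted p = 0.000799).

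The ADAMTSL sum was dominated by *Adamtsl4*, a fibrillin-binding glycoprotein of microfibrils, which made up 81.9% of it in Scr and 68.1% in Yme1l siRNA. *Adamtsl4* had 200.2, 193 and 168 CPM in Scr and 60.8, 60.0 and 56.9 CPM in Yme1l siRNA. The knockdown libraries were nearly equal and well below the controls, with a log2 fold change of −1.66 (SE 0.08, edgeR adjusted p = 6.5e-06). *Adamtsl5* was lower at −0.55. *Adamtsl3*, at −0.62, was the only called member whose groups overlapped, with 27.0, 22.0 and 18.3 CPM in Scr and 18.9, 14.9 and 9.94 CPM in Yme1l siRNA (edgeR adjusted p = 0.0412). Its call was lost without Scr replicate 1 (−0.47), Scr replicate 2 (−0.64), Yme1l siRNA replicate 2 (−0.63) or Yme1l siRNA replicate 3 (−0.41), with library totals (−0.55) and with a mean of at least 50 counts (−0.59), and its adjusted p ranged from 0.000933 to 0.135 over the alternatives.

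The 41 members not tested comprised 9 MMP, 1 TIMP, 22 ADAM, 7 ADAMTS and 2 ADAMTSL genes. Of these, 16 had 0 counts in all libraries, and the highest count of any in a library was 26. *Mmp24* had 6, 3 and 2 counts in Scr and 12, 19 and 3 in Yme1l siRNA, and *Adam3* 6, 7 and 7 and 26, 18 and 7. Both passed the filter and were called higher without Yme1l siRNA replicate 3, at 1.93 and 1.58, and without the third culture of both groups, at 1.61 and 1.58. *Adam1b*, with 0, 0 and 0 counts in Scr and 4, 5 and 6 in Yme1l siRNA, was called with no filter on low counts, at 5.31. In CPM, every Yme1l siRNA library was above every Scr library for 7 of the 41, *Adam1b* among them, and below for 2. These members have low counts, and the share over all untested loci was not computed. The libraries were made with a stranded kit, but the counting program and its strand setting are not given in the sources used here, and 13 of the 43 tested members share exon sequence with a gene on the other strand. These are *Adam8*, *Adam15*, *Adam17*, *Adam19*, *Adam1a*, *Adamts4*, *Adamts7*, *Adamts9*, *Mmp11*, *Mmp12*, *Mmp19*, *Mmp28* and *Timp3*, and reads of the partner gene cannot be told apart where counting ignored strand.

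Proteases and regulators that act with the members were described from lists, each to be read beside all loci tested, of which 58.0% were called, 28.4% higher and 29.6% lower, with a median of 0.01. In the plasminogen activator system, which generates plasmin, an activator of pro-MMPs, 9 of 12 genes were tested, 5 being higher and 4 lower, with a median log2 fold change of 0.19. The locus of *Serpinb2*, joined with *Serpinb10*, rose from 1.70 ± 0.514 to 3.72 ± 0.0335 CPM (SD, n = 3), a log2 fold change of 1.12 (SE 0.23, edgeR adjusted p = 0.00286). *Anxa2*, part of a plasminogen receptor, and *Serpinb6a* fell, with log2 fold changes of −0.82 and −0.49. All Yme1l siRNA libraries lay outside the Scr range for each of these 3. Without Scr replicate 2 the list had 2 lower genes in place of 4.

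Of 23 membrane and secreted regulators of metalloproteinases, 16 were tested, with 6 higher, 5 lower and a median log2 fold change of −0.06. These are 37.5% higher and 31.2% lower, against 28.4% and 29.6% over all loci. *Cd44*, which docks MMPs at the cell surface, rose from 304 ± 7.81 to 665 ± 85.8 CPM (SD, n = 3), a log2 fold change of 1.13 (SE 0.10, edgeR adjusted p = 4.29e-05). *Reck*, a membrane-anchored inhibitor of MMPs, had 20.9, 16.8 and 14.9 CPM in Scr and 12.0, 12.1 and 8.40 CPM in Yme1l siRNA. It was lower in each knockdown library, with a log2 fold change of −0.69 (SE 0.17, edgeR adjusted p = 0.00857). *Tspan17*, a tetraspanin partner of ADAM10, fell with a log2 fold change of −0.92. Other tetraspanin partners of ADAM10 were called in both directions, *Tspan14* and *Tspan15* lower at −0.60 and −0.24, and *Tspan5* and *Tspan33* higher at 0.29 and 4.34. *Tspan33* had 3, 0 and 1 counts in Scr and 24, 50 and 20 in Yme1l siRNA. The call was lost for *Tspan15* without Yme1l siRNA replicate 1 (−0.25) and with library totals (−0.18), and for *Tspan5* without Scr replicate 1 (0.24) or Scr replicate 2 (0.27). *Sfrp2* rose from 1.02 ± 0.563 to 2.15 ± 0.535 CPM, with a log2 fold change of 1.07 and an edgeR adjusted p of 0.042. The call of *Sfrp2* was lost without Scr replicate 2 (1.01), Scr replicate 3 (0.73), Yme1l siRNA replicate 1 (1.19) or Yme1l siRNA replicate 2 (0.85), and without the third culture of both groups (0.81), with adjusted p between 0.00891 and 0.124 over the alternatives. The number of lower regulators was 8 without Scr replicate 3.

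Of 9 proprotein convertases, the 7 tested were all called, 3 higher and 4 lower, with a median log2 fold change of −0.38. Of the 3, 1 is a locus that joins *Pcsk6* with *Gm45213* and *Snrpa1*, so its rise cannot be assigned to *Pcsk6*. Some of these enzymes, such as furin, remove the propeptides of membrane MMPs and ADAMs. *Furin* itself was called lower, with a log2 fold change of −0.40 (SE 0.07, edgeR adjusted p = 0.00139). *Pcsk2* fell from 30.4 ± 5.86 to 3.61 ± 1.38 CPM (SD, n = 3), a log2 fold change of −3.07 (SE 0.27, edgeR adjusted p = 4.33e-05), and *Mbtps1* fell with −0.85. *Pcsk4* rose by 1.44 on the log2 scale, from 3.29 ± 1.10 to 8.92 ± 0.733 CPM.

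Of 28 other matrix-degrading proteases and glycosidases, 23 were tested, 5 being higher and 10 lower, with a median of −0.30. The cell-surface peptidase *Mme*, or neprilysin, fell from 256 ± 62.7 to 60.4 ± 15.6 CPM, a log2 fold change of −2.08 (SE 0.23, edgeR adjusted p = 0.000131), and the serine protease *Htra3* fell with −1.86. The heparanase gene *Hpse* and the endothelin-converting enzyme *Ece1* rose, with log2 fold changes of 1.40 and 0.90. None of these 4 genes had overlapping groups.

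Of 27 matrix substrates, 22 were tested, 3 being higher and 13 lower, with a median log2 fold change of −0.51. Several of the 13, such as *Col1a1*, *Col3a1*, *Dcn* and *Fn1*, are also fibroblast markers. The basement membrane gene *Nid2* fell from 143 ± 29.2 to 48.5 ± 11.8 CPM, a log2 fold change of −1.56 (SE 0.20, edgeR adjusted p = 0.00028). The fibrillin genes diverged: *Fbn2* fell with a log2 fold change of −1.55, and *Fbn1* rose from 325 ± 76.0 to 696 ± 153 CPM, at 1.10 (SE 0.21, edgeR adjusted p = 0.00198). *Col2a1* rose with 0.88. The number of higher substrates was 5 without Yme1l siRNA replicate 3.

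Of 38 substrates of ectodomain shedding, 34 were tested, 16 being higher and 9 lower, with a median log2 fold change of 0.41. The chemokine *Cxcl16*, released by ADAM10, rose from 0.895 ± 0.409 to 4.48 ± 1.85 CPM (SD, n = 3), a log2 fold change of 2.33 (SE 0.42, edgeR adjusted p = 0.0016). The growth factor *Nrg1* rose with 1.62. *Notch3* and *Notch1* fell, from 64.9 ± 6.33 to 19.1 ± 3.92 CPM and from 48.6 ± 3.84 to 18.1 ± 1.21 CPM, with log2 fold changes of −1.76 and −1.43. For all 4 genes the groups did not overlap.

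Of 27 known inducers of MMP genes, such as AP-1 and ETS factors and cytokines, 25 were tested, 8 being higher and 6 lower, with a median of 0.06, so that 56.0% were called, near the share over all loci. The ETS factor *Etv4* had 3.46, 3.02 and 2.94 CPM in Scr and 35.6, 39.7 and 34.1 CPM in Yme1l siRNA. It was higher in every knockdown library by a wide margin, with a log2 fold change of 3.54 (SE 0.11, edgeR adjusted p = 3.26e-06). Its relative *Etv1* fell with −1.12. The AP-1 gene *Fosb* rose with 1.87, from 0.791 to 2.90 CPM, and *Tgfb3* fell with −1.11, from 136 to 63.1 CPM. Among the genes named from these lists, *Anxa2*, *Cxcl16*, *Fbn1*, *Fbn2*, *Fn1*, *Furin*, *Nid2*, *Notch1*, *Notch3*, *Nrg1*, *Pcsk2*, *Serpinb6a*, *Sfrp2* and *Tgfb3* share exon sequence with a gene on the other strand.

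Markers of other cell types were low, with some exceptions. Called counts of these marker lists, here and in the next paragraph, are to be read beside all loci tested. Of all loci, 28.4% were called higher and 29.6% lower. The 14 macrophage and leukocyte markers summed to 208, 199 and 193 CPM in Scr and 286, 273 and 278 CPM in Yme1l siRNA, which came mostly from *Csf1r*, with group means of 123 and 205 CPM. *Adgre1*, *Tyrobp* and *Cd3e* were at 0 in every library, 10 of the 14 stayed under 1 CPM, and 1 of 4 tested was higher. The 10 endothelial markers summed to 5.50, 5.74 and 5.59 CPM in Scr and 11.4, 10.3 and 9.90 CPM in Yme1l siRNA. Their most abundant gene was *Tek*, at 3.39 and 5.19 CPM, *Emcn* and *Cldn5* were at 0, and 4 of 5 tested were higher. The 10 epithelial markers summed to between 0.115 and 1.33 CPM, with *Krt8* the most abundant and only tested gene, which was higher, and *Krt5* and *Esrp1* at 0. *Csf1r* and *Krt8* share exon sequence with a gene on the other strand. The sums of these lists were higher in each Yme1l siRNA library while most proteases fell, and their part in the results was not tested.

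The 12 cartilage and bone markers summed to 296, 256 and 212 CPM in Scr and 173, 178 and 172 CPM in Yme1l siRNA, mostly from *Sox9*, at 183 and 118 CPM. Of the 5 tested, 1 was higher and 3 lower, and *Matn1* and *Ibsp* were at 0. This list fell along with the proteases, and its part in the result was not tested. Of the smooth and skeletal muscle markers, 9 of 10 names were found, with sums of 197, 175 and 185 CPM in Scr and 185, 179 and 196 CPM in Yme1l siRNA. Their most abundant gene was *Smtn*, at 169.6 and 174 CPM, *Myod1* and *Myog* were at 0, and 1 of 5 tested was lower. Of the neural markers, 9 of 10 names were found, with sums of 67.7, 63.6 and 67.5 CPM in Scr and 80.0, 69.1 and 75.6 CPM in Yme1l siRNA. Their most abundant gene was *Map2*, at 46.4 and 55.2 CPM, *Snap25* and *Sox10* were at 0, and of 6 tested 2 were higher and 1 lower. *Smtn* and *Map2* share exon sequence with a gene on the other strand.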

How the data were processed

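RNA-seq reads of all 6 libraries were processed by the authors, whose notes and methods name HISAT2 2.0.4, StringTie 1.3.3, Cufflinks and Cuffdiff 2.2.1 with mouse build mm10. The authors deposited raw counts per locus, without normalization; the counting program, its strand setting and the handling of multiply mapped reads are not given in the sources used here. A second table, the authors' own comparison (FPKM levels per group, fold changes, p-values and q-values), was not used. TMM factors were computed with edgeR 4.0.16 (R 4.3.3), which also ran quasi-likelihood tests of Yme1l siRNA against Scr, after filterByExpr (minimum 10 counts, total 15), with Benjamini-Hochberg adjustment over 14499 loci at 0.05. The biological coefficient of variation was 0.131. Exon lengths, with all annotated exons of a gene joined, came from GENCODE M21, which matched all 84 members. Near-identical transcripts (at least 95% over at least 200 bases) were sought with BLAST 2.17.0. On simulated data edgeR, DESeq2 and limma-voom recovered most of the changes put in, but the share of false calls was above the 0.05 threshold for each and highest for DESeq2. Alternatives were DESeq2 1.42.0, limma-voom (limma 3.58.1), other scale factors, filters and thresholds, a replicate block, and leaving out libraries. Named genes were *Yme1l1*, every TIMP, the cluster genes, the 4 most abundant tested members of the MMP, ADAM and combined ADAMTS and ADAMTSL families with up to 4 largest rises and 4 largest falls among called genes without overlap, up to 2 rises and 2 falls per pathway list at a mean of at least 1 CPM, and the leading and undetected markers; others were named after their values were seen. A few genes that this rule takes are not reported here. Members and lists were chosen with earlier results of these data known.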

Additional observations from a re-analysis of the deposited data

How the results depend on the processing

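Of 1079 alternative values for 57 named genes, 1029 kept their direction and their side of the threshold, 42 in 19 genes lost the call, 7 in 3 genes gained it and 1 changed sign, which was *Mmp3* without Scr replicate 1, at 0.081. Other genes named above lie outside this tally. Among them, *Mmp9* changed sign without the third culture of both groups. Calls were also gained, as for *Adamts5*, or lost, as for *Adamtsl3*, and are given beside their values. Of 522 alternative counts, medians and summed levels, 468 moved by less than the replicate spread or 1.5 times. Leaving out the third culture of both groups and all settings of the summed levels were chosen after seeing the data.

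At an adjusted p under 0.05 and at least 2-fold, 1186 loci were higher and 1055 lower. The lower members were 3 MMP, 1 TIMP, 4 ADAM, 4 ADAMTS and 1 ADAMTSL genes. With 0 ADAM and 0 ADAMTS genes higher, 1 member was higher and 13 lower in all. Fewer genes can pass by construction. At an adjusted p under 0.01, 0 MMP genes, 1 ADAM gene and 3 members in all were higher. No MMP gene was higher with limma-voom (0) or with a mean of at least 50 counts (0), since *Mmp10* was not called or not tested. Without loci of several names, 1 ADAM gene was higher and the ADAM median was −0.89, as the *Adam1a* locus left.

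With no filter on low counts the medians were −0.43 for MMP, −1.10 for TIMP, 0.044 for ADAM, 0.24 for ADAMTS and −0.25 for all members, by construction over more genes. With a mean of at least 50 counts the ADAM median was −0.67. With library totals in place of TMM, the medians were −0.72 for ADAM, −0.15 for ADAMTS and −0.55 for all members, the summed ADAM CPM was 83.4% of Scr, and the median of all loci shifted by 0.06; the cause was not tested. Without the third culture of both groups the median of all members was −0.68.

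As each library was left out, the MMP genes called higher ranged from 0 to 1 and the ADAM genes from 1 to 3. Without Yme1l siRNA replicate 3 the MMP gene called higher was *Mmp24*, not *Mmp10*, and the third ADAM gene was *Adam3*; neither passes the filter with all libraries. Medians ranged from −0.75 to −0.37 for MMP, −0.96 to −0.71 for TIMP, −0.999 to −0.68 for ADAM, −0.85 to −0.52 for ADAMTSL and −0.70 to −0.57 for all members. Genes called lower ranged from 2 to 4 in the plasminogen activator list and from 4 to 8 among the regulators, and higher matrix substrates from 2 to 5. *Mmp3* ranged from −1.59 to 0.081. The cause was not tested.

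With the replicate number as a block, 4227 loci were higher and 4460 lower, and 6 members higher and 27 lower. Under the block *Mmp12* (−0.42) and *Timp1* (−0.21) were called lower, with adjusted p of 0.0102 and 0.0262 against ranges of 0.0102 to 0.516 and 0.0205 to 0.487 over all alternatives, and no other named gene changed its call. The samples share only a number: deviations of same-numbered libraries correlated at 0.0409, 0.116 and 0.192, and Scr replicates 1, 2 and 3 correlated best with Yme1l siRNA replicates 2, 2 and 3. Genes at a handful of counts limit what depth can show for the untested members.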
